A study of Mus musculus with 43 samples.

Results

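Transcripts of the proteasome were compared in mouse CD4 T cells that had met different amounts of persisting antigen. The genes were chosen by name, as symbols that begin with Psma to Psmg and a number. The rule itself uses no measured value, but it was set with earlier results of these data known. Of 50 such symbols, 48 are proteasome genes, and 47 of these had a probe set of their own among the 22180 genes measured. Psma4, an alpha ring subunit, shares its probe sets with another transcript and was not analysed here. Psmc3ip, a recombination factor, and Psme3ip1, which encodes a partner of the Psme3 protein, begin in the same way but are not proteasome subunits and were left out.

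The proteasome is the complex that degrades proteins marked with ubiquitin. Its core is a barrel of outer alpha rings, which gate entry, and inner beta rings, in which the subunits encoded by Psmb5, Psmb6 and Psmb7 cut, while a regulatory particle with an ATPase base and a lid binds, deubiquitinates and unfolds substrates. In lymphocytes and under interferon gamma the immunosubunits encoded by Psmb8, Psmb9 and Psmb10 replace these catalytic subunits, which alters the peptides made for MHC class I, and the products of Psme1 and Psme2 form an interferon-inducible activator cap.

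All T cells carried the transgenic AND receptor for a moth cytochrome c peptide, the CD45.1 marker and a deletion of Rag2. They were transferred into recipients and sorted back as cells positive for CD4, CD90.2 and CD45.1. In iMCC recipients, dendritic cells make the peptide, built into the invariant chain, while doxycycline is in the drinking water; these mice had received an antibody to CD40 a day ahead of the transfer and 100 µg/ml doxycycline until day 3. On day 30 there were 5 arrays each of the groups off (100 µg/ml to day 10, then 0), none (0 µg/ml from day 3), low (10 µg/ml from day 3) and int (100 µg/ml throughout). On day 10 there were 5 arrays each of none and low and 4 of int, on the same doses, and 4 of the high group, from cMCC recipients, in which cells bearing MHC class II produce the peptide at all times and doxycycline is not needed. The naive group had 5 arrays of AND cells taken 3 days after transfer into recipients with no transgene. The off recipients took the place of cMCC recipients on day 30 because, per the labels' protocols, AND cells die in cMCC mice by then. Day 30 cells came from a separate sort series, so that time after transfer cannot be told apart from the series of sorting. No label states whether the arrays of a group stem from different mice, so each p-value refers to the spread between arrays, part of which may be technical.

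Values are log2 signals. The group means of Cd4 lay between 9.12 and 10.0 and those of Thy1, which encodes CD90, between 10.12 and 11.20, the lowest Thy1 mean being that of the high group. Naive replicates 3 and 4 stood apart, with a mean of 6.67 and 5.22 over 4 B cell markers and of 6.38 and 5.91 over 6 myeloid markers. In the other naive arrays these means were at most 4.09 and 4.64. Dividing cells also differed: the mean of Mki67 and Top2a was 5.50 to 6.13 in day 10 high, 4.45 to 5.96 in naive and 3.06 to 4.86 in the other groups except for 5.70 in day 10 int replicate 4.

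Most proteasome genes differed little between the 9 groups. The group means of a member spanned 0.24 to 1.13 on the log2 scale, with a median span of 0.58, and only the core assembly chaperone genes Psmg2 (1.05) and Psmg3 (1.13) spanned more than 1, that is 2-fold. Over all genes the median span was 0.44 and 9.79% of genes spanned more than 1; over the 6069 genes with a mean signal of at least 5 these figures were 0.73 and 23.7%. A moderated F test across all groups, chosen after the data had been seen, called 12 of the 47 members (25.5%) at an adjusted p under 0.05, against 15.7% of all genes. Among the 42 members with a mean signal of at least 5 it called 28.6%, against 37.5% of genes at that level. Since RNA was taken from whole sorted populations, fewer cells of a type and less RNA per cell cannot be told apart.

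The 12 called members fell unevenly over the complex, by a test chosen after the data had been seen. They included all 6 catalytic subunits, that is the constitutive Psmb5 (adjusted p = 0.000649 in the F test), Psmb6 (0.0316) and Psmb7 (0.025) and the immunosubunits Psmb8 (0.0364), Psmb9 (0.00242) and Psmb10 (0.017). The other 6 of 41 members were the beta ring gene Psmb1 (0.000267), the alpha ring gene Psma1 (0.0194), the base ATPase gene Psmc2 (0.000555), the core assembly chaperone genes Psmg2 (0.00224) and Psmg4 (0.0296) and Psme3 (0.0111), which encodes a nuclear activator. None of the 8 lid genes or the 3 base genes without ATPase activity was called. A call depends on the spread between arrays as well as on the span. The catalytic genes passed with spans of 0.46 to 0.65 at a residual SD (spread within groups) of 0.15 to 0.23. These spans lie on both sides of the member median of 0.58. Wider spans were not called in Psmg3 (1.13, SD 0.475) and the lid genes Psmd3 (0.93, 0.411) and Psmd6 (0.76, 0.335). Psmg2 was called with 1.05 at an SD of 0.425. A missing call thus does not show a smaller span. In 10 of the 12 the highest group mean was on day 30: in the low group for 5, in the int group for 4 and in the none group for Psma1. Psmb7 was highest in day 10 high and Psme3 in naive cells. Among all 47 members the highest group mean was on day 30 in 19, so most members were highest in another group. The share of all genes with their highest mean on day 30 is not given, so these counts have no background.

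**Figure D1:**
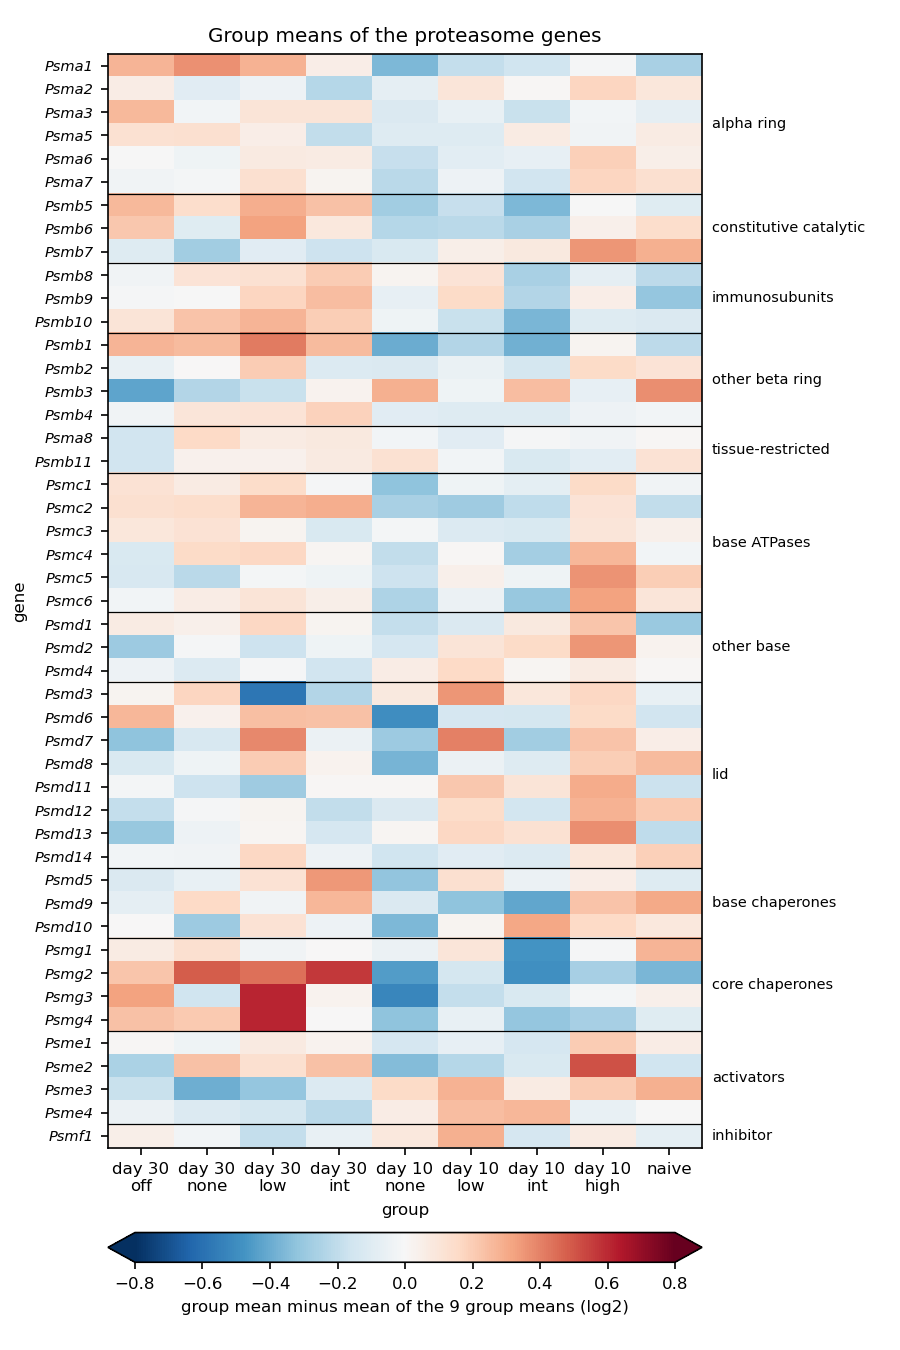
Group means of the 47 proteasome genes (rows, in blocks by role) in the 9 groups (columns), as the difference from the mean of a gene's 9 group means in log2 units; red is higher and blue lower. Most cells are pale, the day 30 columns are redder for Psmb5, Psmb10, Psmb1, Psmc2 and Psmg2, and the day 10 high column is red through most of the ATPase and lid blocks.

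Members near the floor of the scale carried little information. Psma5, an alpha ring gene of all cells, had group means of 2.80 to 3.13, below the array medians of 3.28 to 3.44. Psma8, whose product belongs to testis proteasomes, had 2.66 to 2.97, and Psmb11, the catalytic subunit of thymic epithelium, had 2.74 to 3.02. Psmb3, another beta ring gene of all cells, had 3.58 to 4.38. A change in Psma5 or Psmb3 could be missed by these probe sets.

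The 6 catalytic subunit genes are the ones whose exchange makes an immunoproteasome, and the stretch of 150 bases before the start is shown for the 4 of them in which a searched motif was found. No window was given for Psmb7, and the window of Psmb10 held none of the motifs. The sequences are RefSeq's, from build GRCm38.p6, on the strand of the gene, and capitals mark the motifs searched in members' promoters.
Psmb5 (chr14:54617996-54618145, minus strand): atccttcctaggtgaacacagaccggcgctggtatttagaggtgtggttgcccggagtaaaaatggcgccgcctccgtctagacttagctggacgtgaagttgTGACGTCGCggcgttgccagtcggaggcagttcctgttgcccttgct
Psmb6 (chr11:70525207-70525356, plus strand): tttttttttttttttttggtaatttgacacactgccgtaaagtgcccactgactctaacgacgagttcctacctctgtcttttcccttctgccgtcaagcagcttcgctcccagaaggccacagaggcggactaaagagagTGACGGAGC
Psmb8 (chr17:34198045-34198194, plus strand): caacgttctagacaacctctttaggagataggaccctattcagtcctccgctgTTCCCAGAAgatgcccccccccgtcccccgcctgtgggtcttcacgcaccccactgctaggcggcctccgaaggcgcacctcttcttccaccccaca
Psmb9 (chr17:34187331-34187480, minus strand): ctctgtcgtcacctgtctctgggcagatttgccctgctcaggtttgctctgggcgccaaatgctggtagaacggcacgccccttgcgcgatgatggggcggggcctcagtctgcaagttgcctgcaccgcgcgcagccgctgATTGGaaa

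The constitutive Psmb5 and Psmb6 stretches hold TGACNNNGC, the antioxidant type element bound by Nrf1 and Nrf2, factors that raise proteasome genes when the proteasome is impaired. It reads TGACGTCGC from position -47 in Psmb5 and TGACGGAGC from -9 in Psmb6, counted back from the start. Psmb8 holds TTCNNNGAA, the core of the site for STAT factors activated by interferon gamma, as TTCCCAGAA from -97. Psmb9 holds CCAAT, the box of the factor NF-Y, on the other strand as ATTGG from -8. A window of 300 bases, 250 before and 50 after the start, was given for 39 of the 47 members, and both strands were searched. TGACNNNGC occurred in 6 of 39 members (15.4%), against 14% of 27025 genes, CCAAT in 14 (35.9%), against 41.1%, and TTCNNNGAA in 3 (7.69%), against 9.55%. The core of the interferon-stimulated response element, a pair of GAAA blocks with 2 free bases between, occurred in 5 (12.8%; Psmb3, Psmd4, Psmd9, Psmg4 and Psme1), against 3.99% of genes. These matches describe letters in a window and no more.

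Persisting antigen on day 10 at the low dose left every proteasome gene uncalled. With limma, 0 of 47 members passed in low against none, beside 0.00451% of all genes, and 2 had an unadjusted p under 0.05. The share of all genes at that unadjusted limit is not given, here or below, so these counts have no background. Shares of all genes also include many dim genes, and the F test called fewer of all genes than of brighter ones. The share called among genes with a mean signal of at least 5 is not given for any pairwise comparison. The median log2 change of the members was 0.16, with 39 of 47 above 0; it was 0.11 over genes with a mean signal of at least 5. Psmd7, a lid gene, was the one member whose 95% interval reached past a 2-fold change, up to 1.27.

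Int antigen on day 10 likewise called 0 of 47 members, beside 1.24% of all genes, and 3 had an unadjusted p under 0.05. The median change was 0.01. Intervals past 2-fold were left for Psmd10, Psmg1 and Psmg3, with bounds down to -1.04 and up to 1.3. The 3 immunosubunits all lay below their level without antigen. Psmb8 had 7.90, 8.13, 7.80 and 8.24 in day 10 int, against 8.37, 8.13, 8.14, 8.36 and 8.48 in day 10 none (-0.28 ± 0.13 SE, adjusted p = 0.474, 95% interval -0.53 to -0.03 before adjustment). Psmb10 had 8.70, 8.33, 8.23 and 8.26 in int, against 8.52, 8.64, 8.43, 9.12 and 8.83 in none (-0.33 ± 0.16, adjusted p = 0.529). The groups overlap in both genes. Psmb9 differed by -0.16 ± 0.12 (adjusted p = 0.853), and its interval of -0.40 to 0.08 leaves no room for a 2-fold change either way.

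Neither antigen dose called a member on day 30. In low against none 0 of 47 members were called, beside 0.654% of all genes, with 3 at an unadjusted p under 0.05. Intervals past 2-fold were left there for Psmd3, Psmd7, Psmd10 and Psmg3, with bounds down to -1.26 and up to 1.35. In int against none 0 were called, beside 2.21% of all genes, with 2 at an unadjusted p under 0.05, and all 47 intervals lay within a 2-fold change either way, from -0.91 to 0.92. Psmb9 had 10.19, 9.93, 10.02, 9.80 and 10.10 in day 30 int, against 9.99, 9.82, 9.53, 9.87 and 9.56 in day 30 none (0.25 ± 0.11, adjusted p = 0.313). Replicates with 10.19, 10.02 and 10.10 in int exceeded all none arrays and the groups overlap. Psmb8 changed by 0.09 ± 0.12 (adjusted p = 0.81) and Psmb10 by -0.04 ± 0.15 (adjusted p = 0.953). A test of whether the int effect differed between the days (the day 30 effect less the day 10 effect) called 0 of 47 members, beside 0.0902% of all genes, with 3 at an unadjusted p under 0.05. It was 0.37 ± 0.17 for Psmb8 (adjusted p = 0.72), 0.42 ± 0.16 for Psmb9 (0.641) and 0.29 ± 0.22 for Psmb10 (0.85). The corresponding difference between the days was not tested for low antigen.

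Withdrawal of antigen on day 10 was read on day 30. Off against int called 0 of 47 members, beside 0.464% of all genes, with 3 at an unadjusted p under 0.05, and off against none called 0, beside 0.266%, with 2. The median member change was -0.02 against int and -0.01 against none. The activator gene Psme2 had intervals past 2-fold in both, down to -1.03, as had the assembly chaperone gene Psmg3 against none, up to 1.06. Psmb8, Psmb9 and Psmb10 differed from none by -0.13, -0.01 and -0.13, with intervals of -0.37 to 0.10, -0.24 to 0.22 and -0.43 to 0.17. The mean over 6 myeloid markers was 3.63 to 4.96 in off, against 2.92 to 3.48 in none. S100a8 (3.44, adjusted p = 0.0365) and S100a9 (2.87, adjusted p = 0.0458) were higher in off. Lyz2 (0.71), Csf1r (0.35), Itgam (-0.13) and Cd14 (-0.31) were not called.

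**Figure D2:**
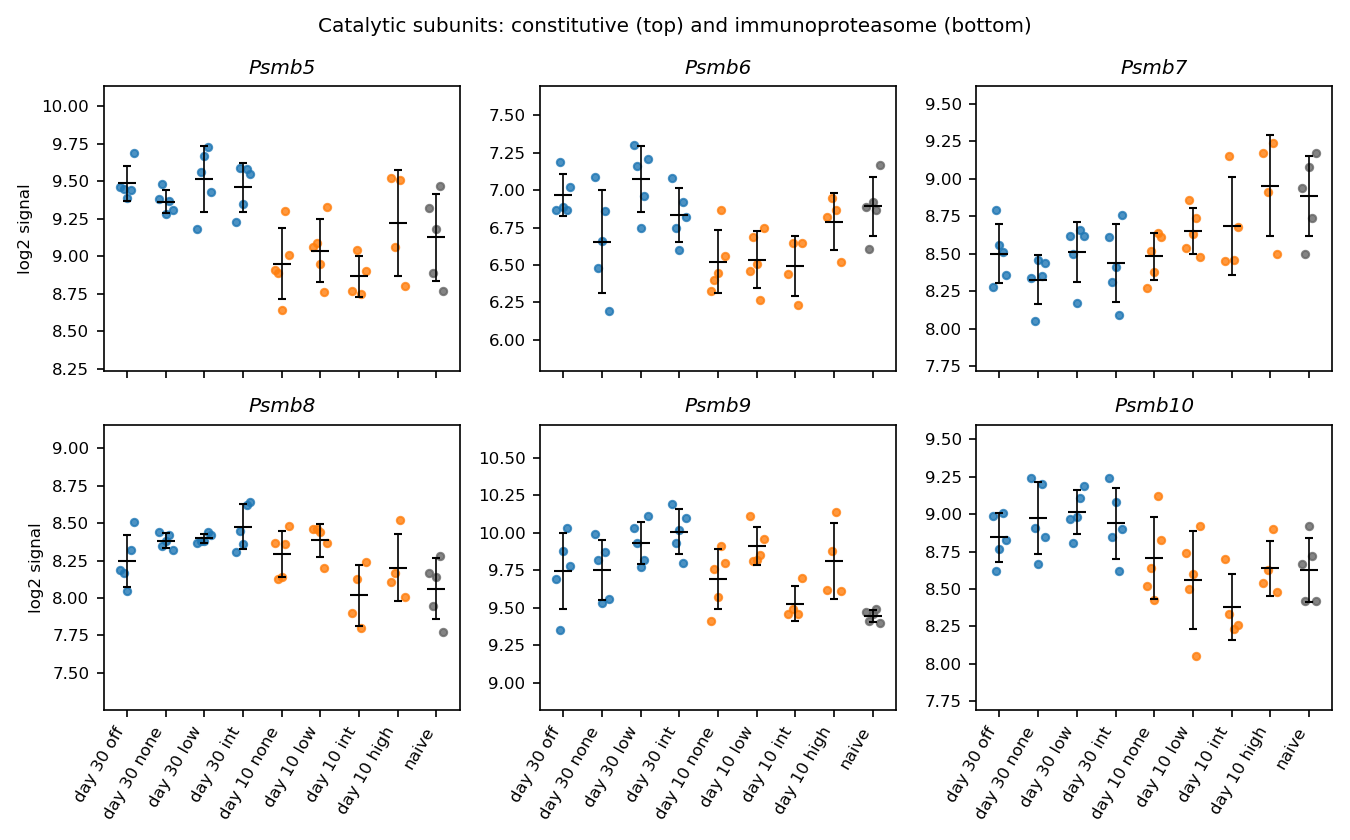
Log2 signal of each array (points) for the constitutive catalytic genes Psmb5, Psmb6 and Psmb7 (top) and the immunosubunit genes Psmb8, Psmb9 and Psmb10 (bottom) in the 9 groups, day 30 in blue, day 10 in orange and naive in grey, with mean and SD in black. Each panel covers 1.9 log2 units. Psmb5 arrays of day 30 sit at 9.18 or more, above most day 10 arrays, and Psmb7 is highest in day 10 high and naive cells.

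The interferon gamma transcript itself rose under int and high antigen on day 10 and under low and int antigen on day 30. Ifng had 6.23, 6.66, 6.98 and 7.18 in day 10 int and 7.42, 7.46, 7.27 and 5.77 in day 10 high, against 4.31, 5.65, 4.16, 4.17 and 4.42 in day 10 none. Both groups lay above every none array, with changes of 2.22 ± 0.36 (adjusted p = 8.73e-05) in int and 2.44 ± 0.36 (adjusted p = 4.39e-06) in high. Under low antigen on day 10 Ifng differed from none by -0.05 ± 0.34 (adjusted p = 1). On day 30 Ifng was higher by 1.69 ± 0.34 in low (adjusted p = 0.00524) and by 1.89 ± 0.34 in int (adjusted p = 0.000322) than in none. Ifngr1, a chain of its receptor, fell, with changes of -1.55 ± 0.34 in day 10 int (adjusted p = 0.00565), -2.24 ± 0.34 in day 10 high (adjusted p = 5.44e-06) and -2.98 ± 0.32 in day 30 int (adjusted p = 1.3e-08), while in day 10 low it was at -0.05 ± 0.32 (adjusted p = 1). In day 30 low Ifngr1 was at -1.10 ± 0.32 (adjusted p = 0.0955), with every low array below every none array. Ifngr2, the other chain, was not called in day 10 int (-0.27, adjusted p = 0.93), day 10 high (-0.15, adjusted p = 0.869) or day 30 int (-0.81, adjusted p = 0.0882).

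Of 18 genes of class I antigen processing and its regulators, 16 were measured. In day 10 int against none 3 of 16 were called, beside 1.24% of all genes: 2 were higher (Ifng and Irf8, an interferon-inducible factor, 2.04 ± 0.31) and Ifngr1 was lower. In day 10 high against none 3 were higher, beside 2.77% of all genes, namely Ifng and the chaperone genes Calr (0.66 ± 0.17, adjusted p = 0.00904) and Pdia3 (0.60 ± 0.17, adjusted p = 0.0273). Ifngr1 and Nlrc5, the activator of class I genes (-1.16 ± 0.26, adjusted p = 0.00299), were lower there, beside 2.48% of all genes. In day 30 int against none Ifng, Irf8, Irf2 (0.72 ± 0.17, adjusted p = 0.00832) and Nlrc5 (0.96 ± 0.25, adjusted p = 0.0218) were higher and Ifngr1 lower, beside 2.21% of all genes called. In none of these 3 comparisons were the peptide transporter genes Tap1 and Tap2, Tapbp, B2m, H2-K1 or Irf1 called. Tap1 and Psmb9 are divergent neighbours whose promoter windows share 275 of 300 bases; in day 10 high against none Tap1 differed by -0.53 ± 0.21 (adjusted p = 0.167) and Psmb9 by 0.12 ± 0.12 (adjusted p = 0.707).

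**Figure D3:**
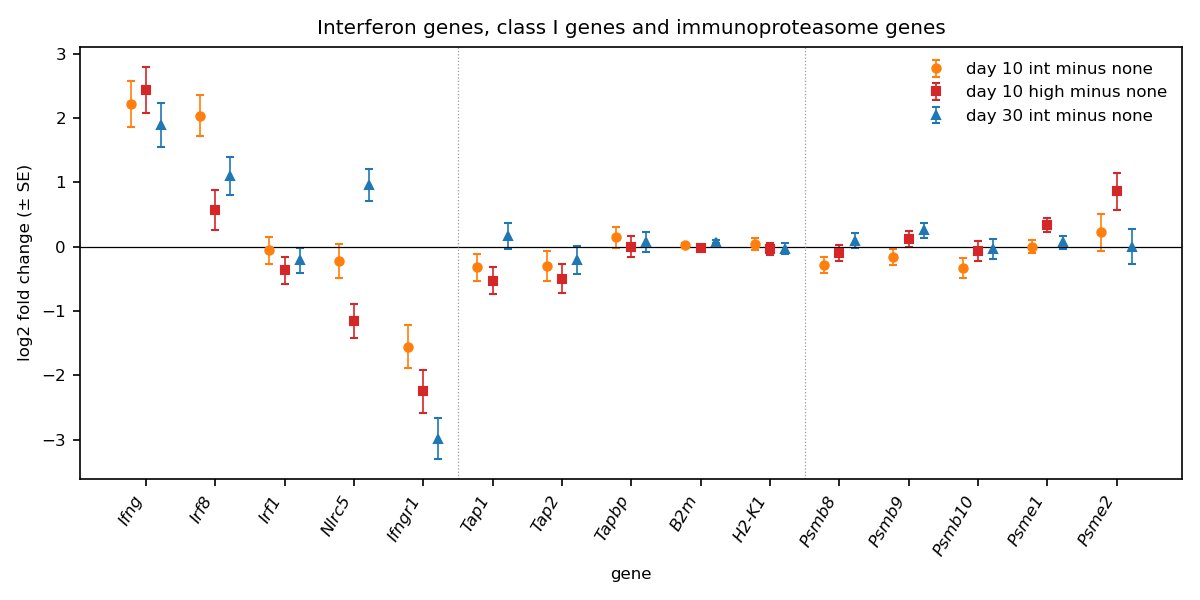
Log2 fold change with SE (vertical axis) of interferon genes (left block), class I genes (middle) and immunosubunit and activator genes (right) in day 10 int (circles), day 10 high (squares) and day 30 int (triangles), each minus the none group of its day. Ifng lies near 2 and Ifngr1 between -1.55 and -2.98, while Psmb8, Psmb9 and Psmb10 lie between -0.33 and 0.25.

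The high group was the one antigen group with members called against none of its day. The high group differs from the none and int groups also in recipient strain, in the cells that present the peptide and in doxycycline. The antibody to CD40, reported above for iMCC recipients only, may differ as well. These factors and the amount of antigen cannot be told apart. Against day 10 none, 3 of 47 (6.38%) were higher, beside 2.77% of all genes, and 0 were lower, beside 2.48%. With dim genes left out, 8 of 44 members were higher, beside 1277 of 11090 genes called either way. An unadjusted p under 0.05 was found for 16 members. Intervals reached past 2-fold for Psmc6, Psmd6, Psmd7, Psmd10, Psmg3 and Psme2, up to 1.44. The median member change was 0.29, with 40 of 47 above 0, against -0.01 over genes with a mean signal of at least 5. By role the median was 0.47 for the 6 base ATPase genes, 0.37 for the 8 lid genes, 0.30 for the alpha ring, 0.27 for the constitutive catalytic genes and -0.07 for the immunosubunits. It was 0.41 for the base genes without ATPase activity, 0.37 for the base chaperones, 0.19 for the activators, 0.16 for the other beta ring genes, 0.12 for the core chaperones, -0.11 for the tissue-restricted genes and -0.02 for the inhibitor gene Psmf1.

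Psmc5, a base ATPase gene, had 8.72, 8.98, 9.10 and 8.63 in day 10 high, against 7.94, 8.10, 8.33, 8.50 and 8.78 in day 10 none (0.53 ± 0.16, adjusted p = 0.0355). Psmc1, also a base ATPase gene, had 8.84, 8.64, 8.81 and 8.49 in high, against 7.95, 8.53, 8.01, 8.06 and 8.55 in none (0.48 ± 0.15, adjusted p = 0.0423). Psme1, for a chain of the interferon-inducible cap, had 9.50, 9.39, 9.49 and 9.20 in high, against 8.71, 9.05, 9.05, 9.30 and 9.18 in none (0.34 ± 0.10, adjusted p = 0.0429). In each gene the high arrays lie toward the top, yet 1 or 2 of them fall within the range of the none arrays.

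Psme2, for the other chain of the cap, had the largest change among the members and missed the threshold. It stood at 7.02, 6.37, 6.55 and 6.85 in day 10 high, against 6.08, 6.18, 5.54, 5.85 and 5.54 in day 10 none (0.86 ± 0.29, adjusted p = 0.0717). The groups do not overlap. The lid and base genes Psmd1 (0.41), Psmd2 (0.49) and Psmd13 (0.36) also had every high array above every none array, with adjusted p of 0.219, 0.104 and 0.369. How many of all genes are so separated is not given, here or below, so separation alone does not set these members apart. Psmb7, which encodes the trypsin-like subunit, was at 0.47 ± 0.16 (adjusted p = 0.0788), and Psmb5 and Psmb6 were at 0.27 each (adjusted p = 0.351 and 0.472). The other activator genes were not called: Psme3 had a mean of 5.800 in high and 5.752 in none, and Psme4 had 5.915 and 6.034.

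Dividing-cell transcripts moved with this comparison: Top2a had 6.72, 7.25, 6.98 and 6.92 in day 10 high, against 4.47, 4.20, 4.32, 3.84 and 4.32 in day 10 none (2.74 ± 0.21, adjusted p = 4.97e-13). Thy1 was at 9.69 to 10.45 in high, against 11.07 to 11.29 in none. The part of either in the result was not tested. The calls rested on single arrays: without high replicate 3 or 4, or without none replicate 1 or 3, 0 members were called, without high replicate 2 or none replicate 2 there was 1, and there were 7 without high replicate 5 and 5 without none replicate 4 or 5. Array means over the 47 members were 7.17 to 7.54 in high and 6.90 to 7.26 in none, and the ranges overlap.

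Against int, the high group had 0 of 47 members called, beside 2.99% of all genes, with 12 at an unadjusted p under 0.05. The median change was 0.23, with 42 of 47 above 0, against -0.06 over genes with a mean signal of at least 5. Intervals past 2-fold were left for Psmc6, Psmd7, Psmd9, Psmg1 and Psme2, up to 1.24.

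**Figure D4:**
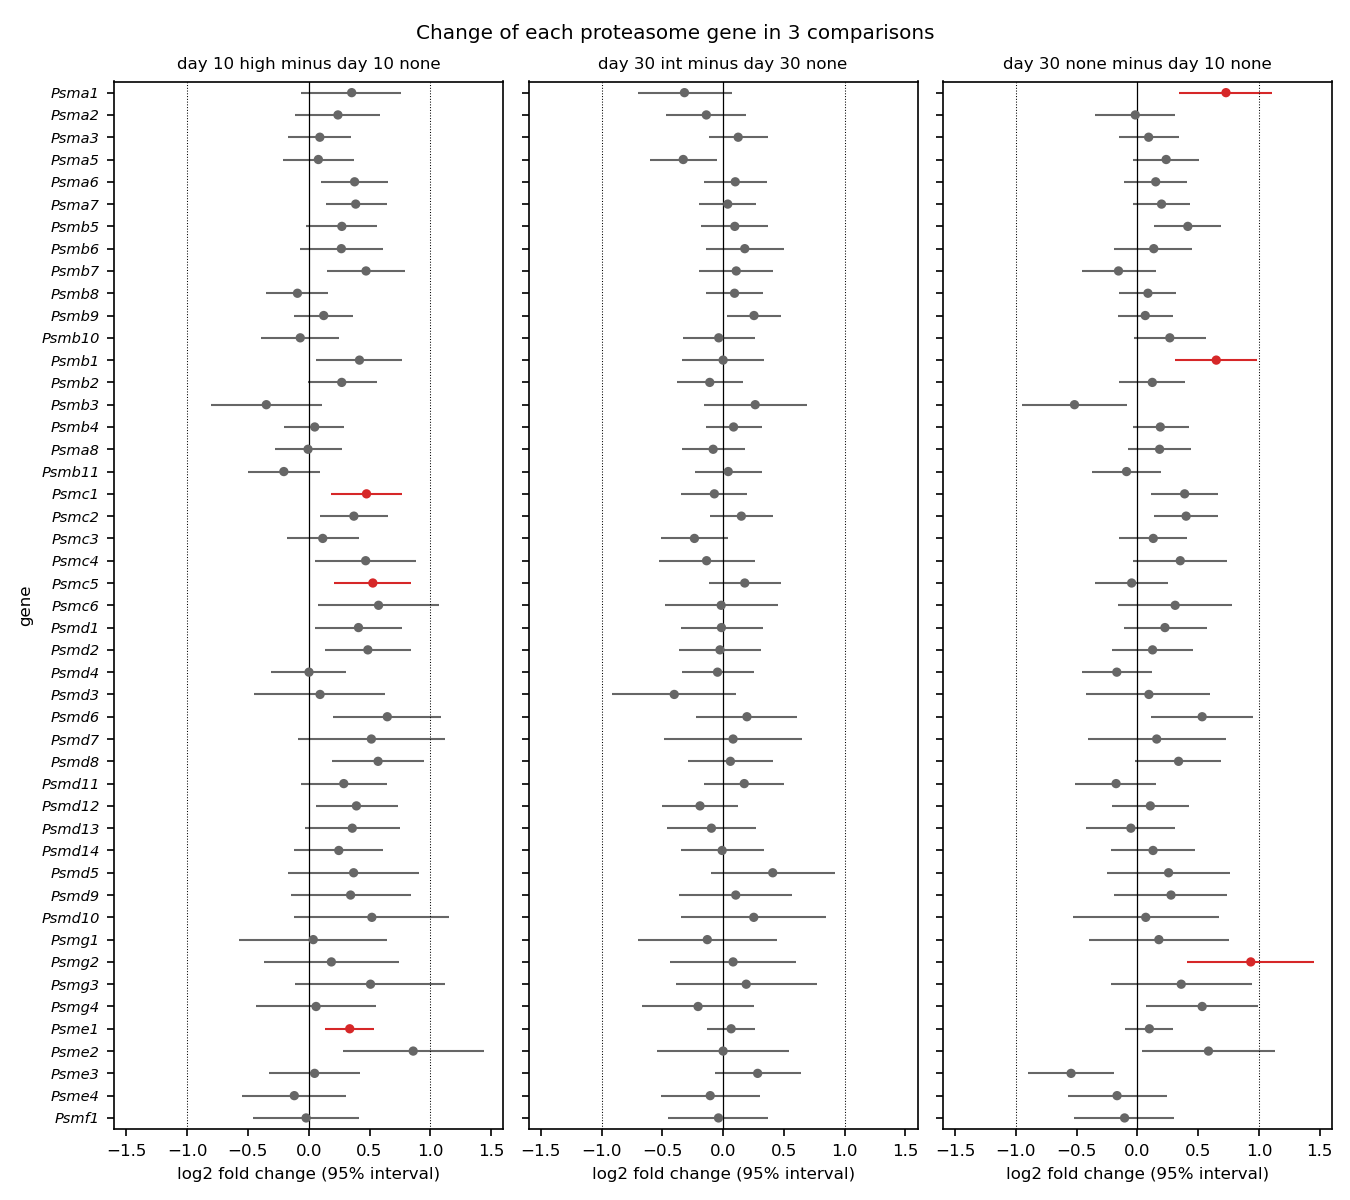
Log2 fold change with its 95% interval before adjustment (horizontal axis) of each of the 47 genes (rows) in day 10 high minus none, day 30 int minus none and day 30 none minus day 10 none; called genes are red and dotted lines mark a 2-fold change. Psmc1, Psmc5 and Psme1 are red in the first panel, no gene is red in the second, and Psma1, Psmb1 and Psmg2 are red in the third.

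Day 30 cells were set against day 10 cells at matched antigen. Without antigen 3 of 47 members (6.38%) were higher on day 30, beside 1.51% of all genes, and 0 were lower, beside 1.93%. With dim genes left out, 3 of 44 members were higher and 1 was lower, beside 785 of 11090 genes called either way. Psma1 had 8.15, 7.65, 8.06, 7.77 and 7.47 in day 30 none, against 6.87, 7.33, 7.03, 6.84 and 7.39 in day 10 none (0.73 ± 0.19, adjusted p = 0.0244). Psmb1 had 9.04, 9.10, 9.27, 9.01 and 9.11 on day 30, against 7.97, 8.21, 8.52, 9.10 and 8.49 on day 10 (0.65 ± 0.17, adjusted p = 0.0214). The days do not overlap for Psma1, and for Psmb1 day 10 replicate 4 lies within the day 30 range.

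Psmg2, a chaperone of alpha ring assembly, had 8.06, 7.25, 7.88, 7.25 and 7.54 in day 30 none, against 6.47, 6.48, 7.54, 6.07 and 6.76 in day 10 none (0.93 ± 0.26, adjusted p = 0.0333). Day 10 replicate 3 lies among the day 30 arrays. The gene has 2 probe sets, and with their mean in place of the brighter one the change was 0.50 and the call was lost (adjusted p = 0.158). It was also lost with only the compared groups in the fit, and it held in 3 of 10 fits with an array left out. Psme3, the nuclear activator gene, lay lower on day 30 in all arrays but was not called (-0.55, adjusted p = 0.0711). The number of calls was 0 without day 10 none replicate 1, 1 without day 10 none replicate 2 or day 30 none replicate 3, and 2 or 3 without any other array of the comparison. The median member change was 0.15, against -0.13 over genes with a mean signal of at least 5.

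Under int antigen 2 of 47 members (4.26%) were higher on day 30, beside 0.347% of all genes, and 0 were lower, beside 0.365%. With dim genes left out, 7 of 44 members were higher, beside 252 of 11090 genes called either way. Psmb5 had 9.23, 9.59, 9.35, 9.58 and 9.55 in day 30 int, against 8.77, 9.04, 8.75 and 8.90 in day 10 int (0.60 ± 0.14, adjusted p = 0.0326). Psmb9 had 10.19, 9.93, 10.02, 9.80 and 10.10 in day 30 int, against 9.46, 9.49, 9.46 and 9.70 in day 10 int (0.48 ± 0.12, adjusted p = 0.0399). Neither gene has overlapping days. Among members that were not called, Psmb8 (0.46, adjusted p = 0.0668), Psmb1 (0.64, adjusted p = 0.0748), Psmg2 (1.05, adjusted p = 0.0529) and Psmb4 (0.29, adjusted p = 0.324) were also higher in every day 30 array. Such separation again has no background over all genes. No call was left without day 10 int replicate 1 or 3, there were 4 without replicate 4, and there was 1 without any other array.

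Some markers of myeloid cells shifted with day in the none groups. The mean over 6 markers was 2.92 to 3.48 on day 30, against 3.07 to 4.83 on day 10. S100a8 was at 2.58 to 4.62 on day 30, against 3.60 to 8.27 on day 10. Lyz2 was at 2.53 to 3.16 on day 30, against 2.33 to 3.36 on day 10. Of the 6, only S100a8 (-3.12, adjusted p = 0.0191) and S100a9 (-2.86, adjusted p = 0.0117) were called. Lyz2 changed by -0.10, Csf1r by -0.03, Itgam by 0.12 and Cd14 by 0.30. With the mean of the other-cell markers as a covariate 5 members were called between the none groups, and all 3 of the above were among them. In the int groups this mean over myeloid markers was 3.28 to 4.07 on day 30 and 3.33 to 3.93 on day 10. Top2a was lower on day 30 in both comparisons, with changes of -0.71 ± 0.20 without antigen (adjusted p = 0.036) and -1.01 ± 0.21 under int antigen (adjusted p = 0.00953). It stood at 3.18 to 3.76 in day 30 none, against 3.84 to 4.47 in day 10 none, and at 4.05 to 4.83 in day 30 int, against 5.05 to 5.76 in day 10 int. Its part in the day differences was not tested.

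Antigen-experienced cells were last compared with naive cells, which also differ in time after transfer, in recipient and in doxycycline. The antibody to CD40, reported above for iMCC recipients only, may be a further difference. In day 10 none 0 of 47 members were higher, beside 1.9% of all genes, and 1 was lower, beside 1.41%. This was the lid gene Psmd8, with 7.89, 8.04, 8.21, 8.43 and 8.68 in day 10 none, against 9.0, 8.41, 9.08, 9.44 and 8.46 in naive cells (-0.63 ± 0.18, adjusted p = 0.0324). Day 10 replicates 4 and 5 overlap the naive range. The call was lost without naive replicates 3 and 4. It was also lost without naive replicate 1, 3 or 4 or day 10 none replicate 1, 2 or 3 alone.

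In day 30 none 2 members were higher than in naive cells, beside 1.98% of all genes, and 2 were lower, beside 2.35%. Psme3 had 5.34, 5.22, 5.26, 5.01 and 5.20 in day 30 none, against 5.88, 6.24, 5.99, 5.82 and 5.46 in naive cells (-0.67 ± 0.18, adjusted p = 0.017). Psmb7 had 8.34, 8.05, 8.46, 8.35 and 8.44 on day 30, against 8.94, 8.50, 9.08, 8.74 and 9.17 in naive cells (-0.56 ± 0.15, adjusted p = 0.0212). All day 30 arrays lie below all naive arrays in both genes.

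The 2 higher genes were Psmg2 (0.85 ± 0.26, adjusted p = 0.0484), with every day 30 array above every naive array, and Psma1 (0.63 ± 0.19, adjusted p = 0.0484), with overlap. The Psmg2 call held in 4 of 11 settings and in 3 of 10 fits with an array left out, and with the mean of its 2 probe sets the change was 0.46 (adjusted p = 0.212). Without naive replicates 3 and 4 the calls of Psme3, Psmb7 and Psmg2 were lost, and 2 members were called. Leaving out any single array gave 1 to 5 calls: 1 without naive replicate 2, 3 or 5, 2 without day 30 none replicate 2 or 3, and 5 without naive replicate 4. The immunosubunits Psmb8 (0.32, adjusted p = 0.121) and Psmb9 (0.31, adjusted p = 0.119) lay above the naive arrays in every day 30 none array without being called. In day 10 int 0 members were called against naive, beside 3.15% of all genes, and in day 10 high 0, beside 4.82%, with 6 at an unadjusted p under 0.05 in each.

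Of 29 genes whose products work with the proteasome outside its named subunits, 20 were measured. In day 10 high against none 4 of 20 were higher, beside 2.77% of all genes, and 0 were lower, beside 2.48%. Pomp, the chaperone that matures the core, had 8.19, 8.55, 8.55 and 8.01 in high, against 7.51, 7.56, 7.61, 7.62 and 7.81 in none (0.70 ± 0.19, adjusted p = 0.0203). Ngly1, which removes sugars from misfolded proteins and from the factor Nrf1, had 7.94, 8.34, 8.46 and 8.51 in high, against 7.59, 7.26, 7.27, 7.17 and 7.21 in none (1.01 ± 0.20, adjusted p = 0.000675). Neither gene had overlapping groups. Zfand5, a ubiquitin-binding proteasome activator, changed by 1.09 ± 0.20 (adjusted p = 0.000178) and Sem1, a small lid subunit, by 0.37 ± 0.12 (adjusted p = 0.0473).

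Ngly1 was also the one of the 20 called in day 30 int against none, beside 2.21% of all genes, with 8.33, 8.01, 8.12, 8.02 and 7.66 in int, against 6.98, 6.51, 7.63, 7.23 and 6.56 in none (1.05 ± 0.19, adjusted p = 0.000427). The groups do not overlap. Nfe2l1, which encodes Nrf1, changed by 0.04 ± 0.17 in day 10 high (adjusted p = 0.957) and by 0.33 ± 0.16 in day 30 int (adjusted p = 0.368), each against none. Nfe2l2, which encodes Nrf2, lay lower in both without being called. Its mean was 7.53 (6.61 to 8.01) in day 10 high, against 8.03 (7.78 to 8.24) in none. On day 30 it was 7.54 (7.36 to 7.73) in int, against 8.06 (7.83 to 8.35) in none. Sem1 was higher on day 30 than on day 10 without antigen (0.49 ± 0.11, adjusted p = 0.00846) and under int antigen (0.49 ± 0.12, adjusted p = 0.0288).

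The precision of these comparisons was limited by the number of arrays. The SE of a member's change ran from 0.10 to 0.33 over the 14 pairwise comparisons, with a median of 0.17. Of 658 such 95% intervals, before adjustment, 621 lay within a 2-fold change either way, and for 34 of the 47 members all 14 did.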

How the data were processed

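The 43 single-colour arrays measured RNA from sorted CD4 T cells, amplified from little material per the labels' protocols. The authors' deposited values were used as given, as log2 signals per probe set, from 1.46 to 13.87. Their range was taken to show base 2. How background, summarization and normalization were handled is not given in the sources used here. Near the floor, signals are compressed and fold changes of dim genes are understated.

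Among the 41345 probe sets, those with a single gene symbol (23521) were used, while 1814 carried several and 16010 none. The probe set with the highest mean was kept per symbol, which gave 22180 genes. One linear model of limma 3.58.1 (R 4.3.3; lmFit, eBayes with a variance trend) with a mean for each of 9 groups gave 14 pairwise differences and 1 interaction. The p-values were adjusted over all genes by Benjamini-Hochberg, with 0.05 as the limit for a call. The procedure was also run on simulated data, but no outcome is given here, so that run lends the calls no support. The plan named the catalytic and activator genes and Psmf1 in every comparison, but they are given here in only some. It also named each called member and up to 4 called genes each way of the partner and class I lists. Further members were named after their values were seen where all arrays of a group lay apart or an interval passed 2-fold. Members and lists were chosen with earlier results of these data known. The alternatives tried were normalization, variance trend, array weights, a filter on dim genes, probe set averaging, a replicate block, a marker covariate and left-out arrays. Motifs were searched with python 3.11.15.

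Same-numbered arrays did not deviate together: the correlations of their deviations from the group means ran from -0.19 to 0.12.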

Additional observations from a re-analysis of the deposited data

Results flagged for a closer look

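Within groups of 4 or 5 arrays, 9 of 153 member and group combinations held an array far from the rest by Dixon's gap test at its 95% level, which chance gives in about 1 of 20 groups. The difference between the int effects of the 2 days was not called for any member. High arrays were Psmb9 in day 10 int replicate 4 (9.7, others 9.46 to 9.49), Psmb1 in the same array (8.88, others 8.29 to 8.38), Psmb5 in day 30 off replicate 5 (9.69, others 9.39 to 9.46), Psmc5 in day 30 low replicate 1 (8.8, others 8.36 to 8.48) and Psme2 in day 10 int replicate 3 (7.01, others 5.65 to 5.86). Low arrays were Psme2 in day 10 low replicate 4 (5.16, others 6.02 to 6.29), Psme4 in day 10 none replicate 4 (5.23, others 6.06 to 6.36), Psmd8 in day 30 int replicate 4 (8.23, others 8.7 to 8.79) and Psmd8 in day 30 off replicate 2 (8.05, others 8.56 to 8.7). Day 10 int replicate 4 gave 2 of the 9 and also held the highest mean of Mki67 and Top2a in its group, at 5.70.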

How the results depend on the processing

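No direction of a called member was reversed under any alternative, and in the comparisons of low, int and off with none, of off with int and of int with naive, and in the interaction, 0 members were called under every alternative. For day 10 high minus none the count of 3 became 1 with median centring, with only the compared groups in the fit and with a replicate block, 5 with the marker covariate and 8 with dim genes left out. For day 30 int minus day 10 int the count of 2 became 0 with median centring, 5 with the replicate block, 6 with quantile normalization, with array weights and without 4 arrays (naive replicates 3 and 4, day 10 none replicate 4 and day 10 high replicate 2) and 7 with dim genes left out. For day 30 none minus day 10 none the count of 3 became 0 with only the compared groups and 5 with the covariate. For day 30 none minus naive the count of 4 became 0 with only the compared groups, 1 with array weights and with the covariate, and 2 with median centring and without naive replicates 3 and 4. For day 10 none minus naive the count of 1 became 2 with array weights and 0 with median centring, the covariate, only the compared groups, without naive replicates 3 and 4 and without the 4 arrays. Day 10 high minus naive gave 1 without a variance trend and 2 with dim genes left out, and high minus int gave 1 with dim genes left out, in each case against 0. Fewer genes tested or fewer samples fitted are part of the construction of some alternatives; otherwise the cause was not tested. The replicate numbers do not pair the arrays, and all counts with the replicate block not given here were within 1.5 times of those without it, except where both were 0. On leaving out single arrays the counts ran from 0 to 2 for day 10 none minus naive, 1 to 5 for day 30 none minus naive, 0 to 2 for high minus naive, 0 to 7 for high minus none, 0 to 1 for high minus int, 0 to 3 for day 30 minus day 10 without antigen, 0 to 4 under int antigen and 0 to 0 for the others. The median member change in high minus naive was 0.198 with the covariate and 0.196 without naive replicates 3 and 4, against 0.08. Of 11 settings other than single arrays left out, 10 kept the calls of Psmc5 in high minus none, of Psma1 and Psmb1 in day 30 minus day 10 without antigen and of Psmb5 under int antigen. With single arrays left out these calls held in 4 of 9, 5 of 10, 8 of 10 and 3 of 9 fits. The others held in fewer settings: Psmb9 in 9, Psmg2 in 8 between the days, Psme3 in 7, Psme1, Psmc1, Psmd8 and Psma1 against naive in 6, Psmb7 in 5 and Psmg2 against naive in 4.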
